A study of Mus musculus with 12 samples.

Results

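The collagen genes of the mouse cochlea were taken as all rows of the expression table whose symbol has the form Col, a number, a and a number. Of several rows with 1 symbol, that of the highest mean was used. This gave 42 genes among 23598 rows, of which 37 had a value (FPKM, fragments per kilobase, normalised to the mapped fragments) of at least 0.5 in at least 3 samples and were tested. Each sample was total RNA of at least 6 pooled cochleae (apical and middle turns) from mice aged 7 days after birth. The 4 groups of 3 samples were Control, b-catenin-OE (overexpression of β-catenin, the effector of Wnt signalling), Notch1-KO (knockout of the receptor Notch1) and the combination of these, b-catenin-OE and Notch1-KO, named the double group. The sources used here do not give the alleles, the Cre driver or promoter, the strain or the cells in which the changes took place. The design text names supporting cell proliferation and the making of hair cells as the subject. Whether the 3 samples of a group were separate pools is not stated, and p-values therefore cover only the spread among the libraries at hand, part of which may be technical. The tissue holds cartilage, bone, vessels, nerve and sensory epithelium together, and in such bulk samples fewer cells of a type and less RNA per cell cannot be told apart.

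Collagens are secreted or membrane-bound proteins in which chains wind around each other into a rope-like helix. Fibrillar types I, III and V build tensile fibres of bone and connective tissue, while types II, IX and XI build the thin fibrils of cartilage. Types II, IX and XI also make the collagen fibrils of the tectorial membrane, the gel that lies over the hair cells. Type IV forms the sheet of basement membranes, which lie under the sensory epithelium and around vessels, type VI forms beaded filaments, and FACIT collagens (fibril-associated collagens with interrupted helices) sit on the surface of fibrils.

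The targeted genes were checked first. Notch1 had FPKM values of 24.3, 14.7 and 16.6 in Control samples 1 to 3, 37.6, 15.7 and 16.7 with b-catenin-OE, 9.16, 7.63 and 7.56 with Notch1-KO and 8.62, 5.70 and 5.77 with both changes. All 6 samples labelled with the knockout lay below all 6 others. Even so, Notch1 itself did not pass by limma in Notch1-KO against Control (log2 difference -1.11 ± 0.30, adjusted p = 0.16). Its fall passed where both changes were combined, with -1.39 ± 0.30 from the Control level (adjusted p = 0.0113). Measured from b-catenin-OE, that fall was -1.64 ± 0.30 (adjusted p = 0.0175). Ctnnb1, which encodes β-catenin, ranged from 369 to 482 FPKM and passed the test in none of the 5 comparisons, and a change within its transcript was not analysed here. The samples numbered 2 and 3 of each group resembled each other much more than either resembled sample 1. For the 37 tested collagen genes, samples 2 and 3 had a median absolute log2 difference of 0.04 to 0.09, and sample 1 differed from their mean by a median of 0.29 to 0.43. In samples 2 and 3, most low values were whole multiples of 1 fragment at a depth of 18200000 to 26400000 fragments, provided that FPKM was not scaled further, and the depth of the samples numbered 1 is unknown.

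Cartilage-type collagens made up most of the collagen RNA in all 12 samples. Col9a1, a chain of the FACIT collagen IX, had the highest mean level, 1401 FPKM over the 12 samples, with a range of 1135 to 1654. Col2a1, the only chain of type II collagen, followed at 1161 FPKM (787 to 1894) and Col9a2, the partner chain of Col9a1, at 1122 FPKM (942 to 1314). The ranges of these 3 genes overlapped, so their order among themselves varied between samples. Together they held 66.3% to 72.0% of the summed FPKM of the 42 genes, which was 4589 to 6324 per sample. Col9a3, the remaining chain of type IX, was next at 589 FPKM.

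Below these came Col1a2, the α2 chain of type I collagen, at 278 FPKM, Col11a1 of cartilage fibrils at 124, Col18a1, the source of endostatin, at 122 and Col3a1 of soft connective tissue at 119. Of the other members, 12 had a mean of 10 to 100 FPKM, 16 a mean of 1 to 10 and 6 a mean under 1. The 5 members not tested were Col19a1 (0.163 to 0.322 FPKM), Col10a1, the collagen of hypertrophic cartilage (0.0139 to 0.281), Col17a1 of epithelial hemidesmosomes (0 to 0.1), Col6a5 (0.00386 to 0.0943) and Col6a4 (0 to 0.0318). An exact 0 in this table can be a failed estimate. Col11a2, the partner chain of Col11a1, was not a member by the rule because it stands only in a row merged with Rxrb, a nuclear receptor gene. That row had 322 to 430 FPKM in Control, 335 to 481 with b-catenin-OE, 366 to 391 with Notch1-KO and 274 to 434 with both changes, and its reads cannot be split between the genes.

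**Figure D1:**
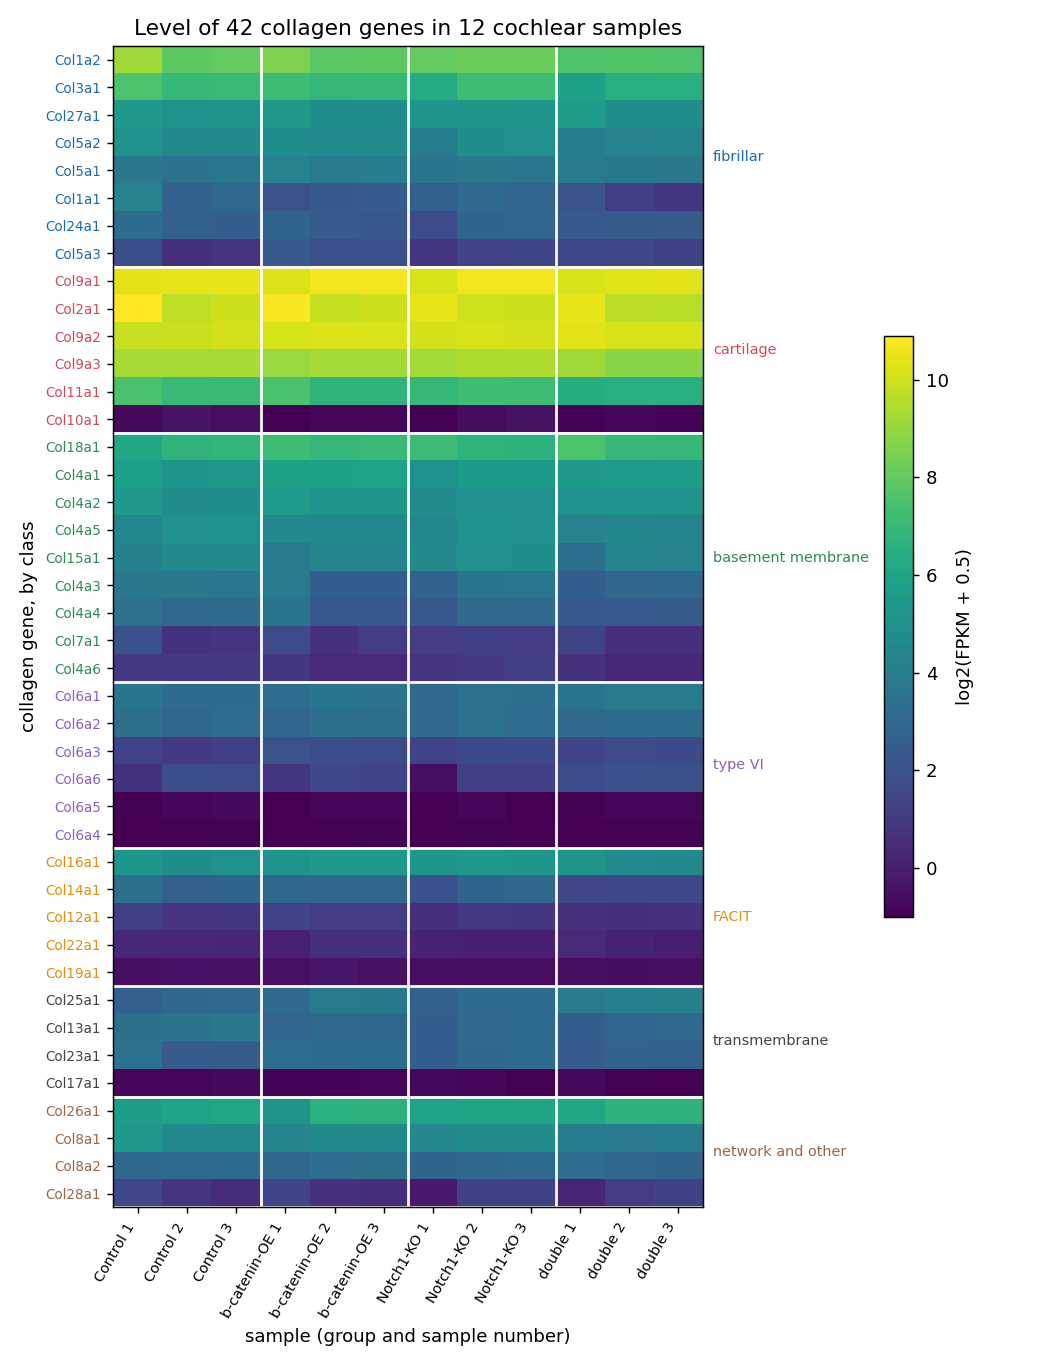
Level of each of the 42 collagen genes (rows, grouped by class) in each of the 12 samples (columns), as log2(FPKM + 0.5) in colour. The cartilage genes Col9a1, Col2a1, Col9a2 and Col9a3 are bright in every column, and Col1a2 far exceeds Col1a1 in every column.

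Chains that are built into the same molecule did not all stand at like levels. Col4a1 and Col4a2, which together make the common type IV network, had FPKM ratios of 1.18 to 1.496 (Col4a1 over Col4a2) in the 12 samples. Col4a3 and Col4a4, chains of the type IV network of kidney and inner ear basement membranes, had ratios of 1.18 to 1.57. Col4a5 stood 15.4 to 27.2 times above Col4a6. The ratio of Col6a1 to Col6a2 was 0.952 to 1.33 outside the double group and 1.496 to 1.68 within it, with no overlap.

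The ratio of Col1a1 to Col1a2 was 0.00695 to 0.0329 with a median of 0.0219, although type I collagen holds more α1 than α2 chains. Col1a1 thus ranked 27th of the 42 members by mean FPKM and Col1a2 5th. No sample came near a ratio of 1. Values of Col1a1 below are given as deposited, and the ratio was lowest in samples 2 and 3 of the double group, at 0.00887 and 0.00695.

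Promoter windows from RefSeq (GRCm38.p6, 250 bases before to 50 bases after a start) were found for 33 of the 42 members, giving 36 windows. They are shown for the head-to-head pair Col4a1 and Col4a2, for the member that rose in the double group against Control (Col25a1), for Col8a1 and Col3a1 among those that fell, and for Col9a2. Each is written 5′ to 3′ on the gene's strand, and capitals mark matches on either strand to the box named CCAAT, to the GC box with letters GGGCGG, to the TATA box with letters TATAAA, or to CTTTGAT, a core of TCF/LEF factors, the partners of β-catenin. Col4a1 lies at chr8:11312777-11313076 on the minus strand, Col4a2 at chr8:11312555-11312854 on the plus strand, Col25a1 at chr3:130180595-130180894 (plus), Col8a1 at chr16:57754688-57754987 (minus), Col3a1 at chr1:45311288-45311587 (plus) and Col9a2 at chr4:121039316-121039615 (plus).
Col4a1: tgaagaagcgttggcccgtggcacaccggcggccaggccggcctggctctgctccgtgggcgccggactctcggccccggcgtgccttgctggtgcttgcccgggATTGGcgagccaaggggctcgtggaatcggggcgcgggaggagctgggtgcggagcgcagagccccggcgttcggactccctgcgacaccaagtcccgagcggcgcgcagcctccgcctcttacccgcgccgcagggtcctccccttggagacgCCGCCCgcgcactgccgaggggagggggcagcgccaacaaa
Col4a2: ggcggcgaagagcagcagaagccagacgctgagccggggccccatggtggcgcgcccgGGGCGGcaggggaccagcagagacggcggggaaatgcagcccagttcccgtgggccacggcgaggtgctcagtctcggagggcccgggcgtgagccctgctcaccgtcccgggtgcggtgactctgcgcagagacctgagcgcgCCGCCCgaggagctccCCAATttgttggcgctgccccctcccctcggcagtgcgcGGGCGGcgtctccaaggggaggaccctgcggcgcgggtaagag
Col25a1: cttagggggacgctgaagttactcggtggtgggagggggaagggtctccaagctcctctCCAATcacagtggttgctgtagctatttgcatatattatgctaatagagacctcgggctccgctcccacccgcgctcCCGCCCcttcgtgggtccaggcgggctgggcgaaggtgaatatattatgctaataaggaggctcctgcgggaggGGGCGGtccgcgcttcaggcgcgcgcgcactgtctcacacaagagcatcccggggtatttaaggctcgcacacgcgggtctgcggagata
Col8a1: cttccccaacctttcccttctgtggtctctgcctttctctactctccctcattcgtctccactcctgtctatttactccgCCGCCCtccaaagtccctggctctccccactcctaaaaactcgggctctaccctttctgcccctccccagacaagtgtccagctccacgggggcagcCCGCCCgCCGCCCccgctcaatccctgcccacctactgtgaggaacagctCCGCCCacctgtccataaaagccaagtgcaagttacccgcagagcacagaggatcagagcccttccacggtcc
Col3a1: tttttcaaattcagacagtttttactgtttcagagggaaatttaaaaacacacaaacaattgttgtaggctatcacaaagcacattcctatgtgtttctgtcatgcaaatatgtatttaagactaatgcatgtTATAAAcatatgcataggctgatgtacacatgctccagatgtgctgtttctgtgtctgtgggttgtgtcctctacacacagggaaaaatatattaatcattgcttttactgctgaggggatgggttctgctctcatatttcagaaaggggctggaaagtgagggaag
Col9a2: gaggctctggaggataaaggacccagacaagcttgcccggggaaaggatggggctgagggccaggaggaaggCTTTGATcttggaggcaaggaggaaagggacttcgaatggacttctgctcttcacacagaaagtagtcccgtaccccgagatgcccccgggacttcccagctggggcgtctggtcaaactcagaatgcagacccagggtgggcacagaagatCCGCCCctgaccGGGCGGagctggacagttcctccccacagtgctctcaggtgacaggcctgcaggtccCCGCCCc

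The starts of Col4a1 and Col4a2 are 21 bases apart on opposite strands and their windows share 78 bases, so some of the capitals in the pair mark the same bases. The starts of Col4a5 and Col4a6, also a head-to-head pair, are 1343 bases apart. CCAAT was found in 13 of the 36 member windows, against 37.4% of all 32851 windows, and GGGCGG in 22, against 35.7%. TATAAA was found in 4, against 13.6% of all windows. CTTTGAT was found in 1 member window, that of Col9a2, against 3.73% of all windows, and the level of Col9a2 did not pass the test in any comparison. These matches describe letters in a window and say nothing of binding.

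In the double group against Control, 6 of the 37 tested collagen genes fell and 1 rose, where 6.64% of all 14581 tested genes fell, 5.88% rose and 12.5% passed in either direction. The genes that fell came from 5 classes: Col1a1 and Col3a1 (fibrillar), Col11a1 (cartilage), Col14a1 (FACIT), Col8a1 (network-forming) and Col13a1 (transmembrane). The gene that rose was Col25a1, a transmembrane collagen. Differences are given as log2(FPKM + 0.5) ± standard error, a scale on which low genes appear to change less than they do. Groups did not overlap for 16 members that were lower and 7 that were higher, against 17.5% and 15.9% of all tested genes. The median log2 difference of the 37 genes was -0.21, beside -0.02 over all tested genes, and moved to -0.11 without Control sample 1 and to -0.38 without Control sample 2. When samples 2 and 3 were averaged in every group, none of the 7 passed (limma adjusted p 0.0803 to 0.25), and 10 collagen genes had an unadjusted p under 0.05. The shares above do not apply to that cut, and the count of all genes at it is given below with the other settings. With the sample number as a block, all 7 passed and Col15a1 (-0.54, adjusted p = 0.0139) and Col4a5 (-0.53, adjusted p = 0.0194) were added. That the numbers pair the samples was not shown.

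**Figure D2:**
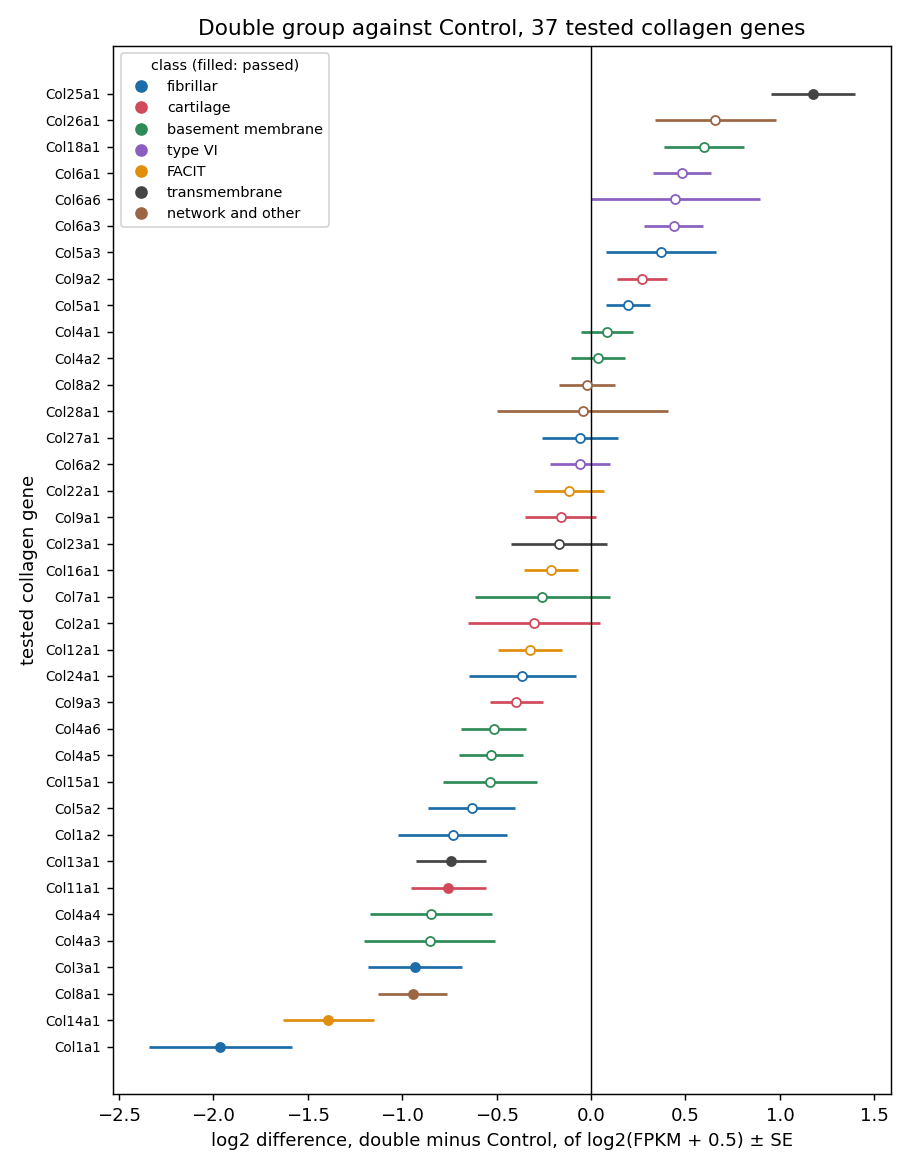
Difference of the double group from Control for each of the 37 tested collagen genes, on the log2(FPKM + 0.5) scale with bars of 1 standard error (3 samples per group). Filled points passed the test at an adjusted p of 0.05, and they run from Col1a1 at -1.96 to Col25a1 at 1.17.

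Col1a1, the α1 chain of type I collagen of bone and fibrous tissue (locus chr11:94936134-94953043, mm10), had 19.0, 6.11 and 7.96 FPKM in Control samples 1 to 3 and 3.86, 1.77 and 1.36 in the double group. It had 3.82, 4.47 and 5.07 FPKM in b-catenin-OE and 5.96, 7.79 and 6.76 in Notch1-KO. Control sample 1 was the highest of the 12, and each double sample lay below every Control sample. The difference of double from Control was -1.96 ± 0.38 (adjusted p = 0.00575), and without Control sample 1 it was -1.501 (adjusted p = 0.0091).

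Col1a2 (chr6:4504454-4541543) had 577, 236 and 257 FPKM in Control, 370, 227 and 240 with b-catenin-OE, 264, 291 and 286 with Notch1-KO and 195, 200 and 196 with both changes. The double samples lay close together below all 9 others, while Control sample 1 stood far above the rest. The difference from Control, -0.73 ± 0.29, did not pass (adjusted p = 0.13).

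Col3a1, which forms fibres with type I collagen in skin and vessels (chr1:45311538-45349706), had 181, 125 and 132 FPKM in Control and 55.5, 87.1 and 88.0 in the double group. Its levels were 140, 119 and 125 FPKM in b-catenin-OE and 80.2, 146 and 147 in Notch1-KO, where sample 1 was low. The double samples numbered 2 and 3 lay above Notch1-KO sample 1, and the double group did not overlap Control. The fall against Control was -0.93 ± 0.25 (adjusted p = 0.0315). It ended without Control sample 1 (-0.77, adjusted p = 0.095) and in 3 of the other runs that left out a sample (Control sample 3, double samples 1 and 2).

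The 8 non-cartilage fibrillar genes were all tested. In the double group 2 fell, and the other 6 did not pass, among them Col5a2 (from 24.4 to 34.2 FPKM in Control to 15.2 to 19.2 in the double group), Col27a1 and Col24a1. Their summed level was 877, 444 and 476 FPKM in Control, 615, 429 and 449 with b-catenin-OE, 419, 534 and 530 with Notch1-KO and 342, 358 and 354 with both changes. The 3 double samples were the lowest 3 of the 12.

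Among cartilage collagens, 1 of 5 tested genes fell. Col11a1, which nucleates type II fibrils (chr3:114030225-114220690), had 178, 130 and 127 FPKM in Control, 180, 107 and 104 with b-catenin-OE, 122, 145 and 143 with Notch1-KO and 80.9, 85.9 and 87.5 with both changes. The double samples were below all others, with little spread. The fall against Control was -0.75 ± 0.20 (adjusted p = 0.0295), and it ended without Control sample 1 (-0.60, adjusted p = 0.0885), in 4 of the other runs that left out a sample (Control sample 2 and each double sample), and with quantile normalization.

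Col2a1 (chr15:97975602-98004724) had 1894, 870 and 996 FPKM in Control, 1824, 919 and 1005 with b-catenin-OE, 1376, 1056 and 1018 with Notch1-KO and 1374, 810 and 787 with both changes. Sample 1 was the highest in each of the 4 groups, and no group stood apart (double against Control -0.30 ± 0.35, adjusted p = 0.646). Col9a3 had 622 to 640 FPKM in Control and 435 to 581 in the double group (-0.39 ± 0.14, adjusted p = 0.0939). Col9a1 and Col9a2 did not pass either. The ratio of Col9a3 to Col9a2 was 0.595 to 0.679 in Control, 0.469 to 0.514 with b-catenin-OE, 0.548 to 0.613 with Notch1-KO and 0.378 to 0.442 with both changes, lowest in the double group with no overlap.

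Of the 4 tested FACIT genes other than type IX, 1 fell. Col14a1, found on type I fibrils in dense connective tissue (chr15:55307618-55520981), had 10.1, 5.79 and 6.56 FPKM in Control, 7.66, 7.15 and 7.15 with b-catenin-OE, 3.53, 6.57 and 7.12 with Notch1-KO and 2.43, 2.49 and 2.49 with both changes. The double samples were nearly equal and below all 9 others. The fall was -1.39 ± 0.24 against Control (adjusted p = 0.00289), -1.40 ± 0.24 against b-catenin-OE (adjusted p = 0.0122) and -1.02 ± 0.24 against Notch1-KO (adjusted p = 0.0195). It passed against Control in all 12 runs that left out 1 sample. Against b-catenin-OE it ended without double sample 2 or 3, and against Notch1-KO without Notch1-KO sample 2 or 3 or any of the double samples. Col16a1, the most abundant gene of this class, had 25.3 to 43.7 FPKM, and Col12a1 had 1.03 to 2.22, and neither passed.

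Col8a1, a short chain of hexagonal networks around vessels (chr16:57624256-57754737), had 42.2, 24.4 and 25.3 FPKM in Control, 20.8, 24.7 and 24.2 with b-catenin-OE, 23.5, 28.6 and 28.8 with Notch1-KO and 15.7, 14.1 and 15.8 with both changes. All double samples were below the 9 others. The fall was -0.94 ± 0.18 against Control (adjusted p = 0.006), which passed in all 12 runs that left out 1 sample, with -0.69 without Control sample 1. Against Notch1-KO it was -0.80 ± 0.18 (adjusted p = 0.0168), and ended without Notch1-KO sample 2 or 3 or double sample 2. Its partner chain Col8a2 had 6.56 to 10.1 FPKM in the 12 samples and did not pass.

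Col26a1, the most abundant member of the remaining class (chr5:136741696-136883631), had 50.7, 58.4 and 62.2 FPKM in Control, 35.5, 96.7 and 97.7 with b-catenin-OE, 56.5, 60.9 and 60.2 with Notch1-KO and 69.2, 104 and 102 with both changes. Every double sample exceeded every Control sample, but the difference did not pass (0.66 ± 0.32, adjusted p = 0.217). In b-catenin-OE, samples 2 and 3 were above and sample 1 below every Control sample.

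The transmembrane class held both directions. Col25a1, a neuronal collagen known in brain as the source of an amyloid-associated peptide (chr3:130180551-130599892), had 5.80, 7.37 and 7.93 FPKM in Control, 7.97, 14.5 and 13.5 with b-catenin-OE, 5.87, 8.501 and 8.37 with Notch1-KO and 14.2, 17.1 and 18.1 with both changes. The double group lay above all of Control and Notch1-KO. The rise was 1.17 ± 0.22 against Control (adjusted p = 0.00519) and 1.08 ± 0.22 against Notch1-KO (adjusted p = 0.00993), and both passed in each of the 12 runs that left out 1 sample. Summed levels of the list of spiral ganglion neuron markers were 217 to 464 FPKM in Control and 157 to 169 in the double group, the lower side, and their part in the rise was not tested.

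Col13a1, a transmembrane collagen known at neuromuscular junctions (chr10:61838227-61979187), had 9.95, 11.5 and 12.99 FPKM in Control, 6.76, 8.18 and 7.52 with b-catenin-OE, 5.33, 8.21 and 8.42 with Notch1-KO and 5.45, 6.86 and 7.75 with both changes. All 9 samples outside Control were below all 3 Control samples. The difference was -0.74 ± 0.19 in the double group (adjusted p = 0.0233), -0.58 ± 0.19 in b-catenin-OE (adjusted p = 0.168) and -0.63 ± 0.19 in Notch1-KO (adjusted p = 0.21), so that only the first passed, and these comparisons share the Control samples. With the sample number as a block all 3 passed (adjusted p 0.00181, 0.0204 and 0.0279). The call in the double group ended without Control sample 2 or 3 or double sample 1 or 2. Col23a1 had 4.75 to 10.7 FPKM in the 12 samples and did not pass.

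**Figure D3:**
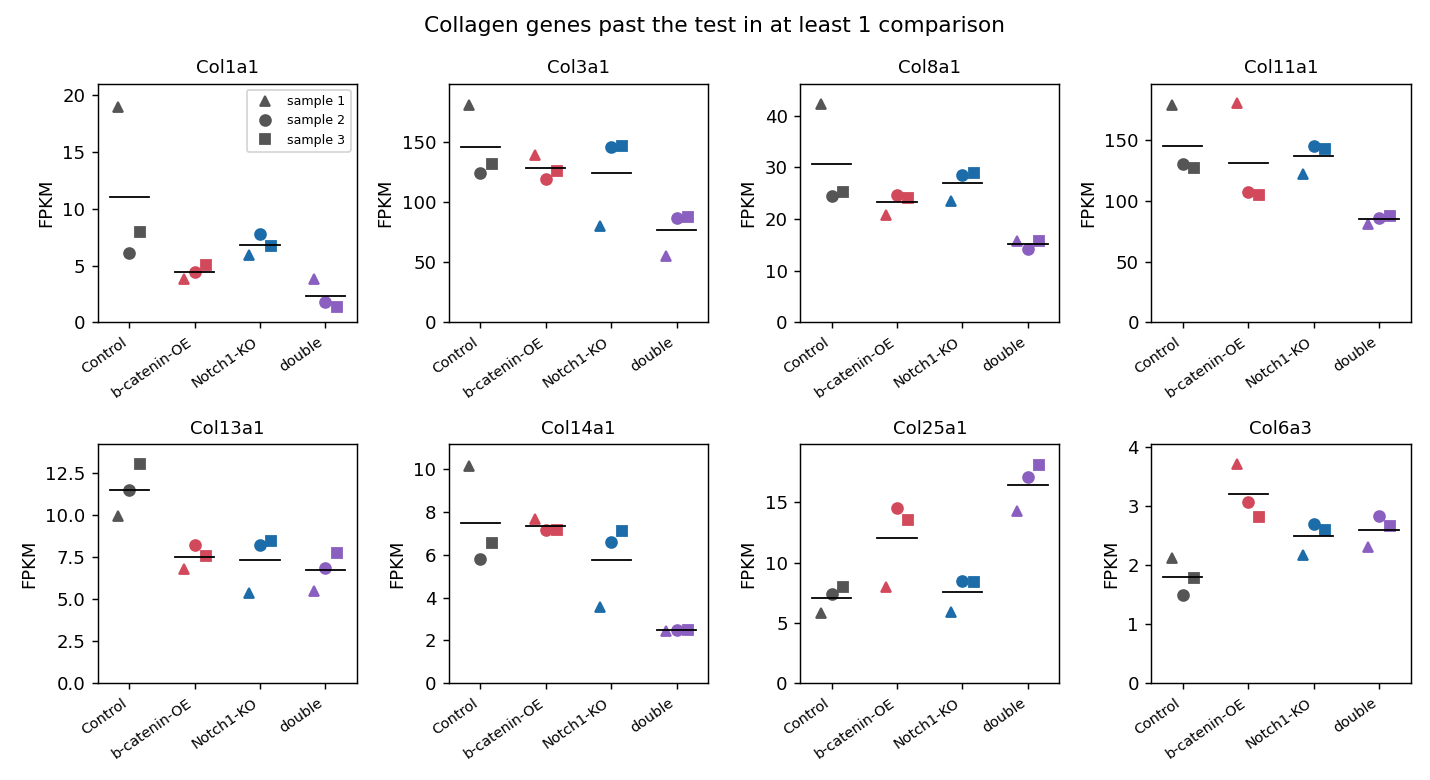
FPKM of the 8 collagen genes past the test in at least 1 comparison, by group, with the 3 samples of a group as separate symbols and the group mean as a line. Col14a1 lies at 2.43 to 2.49 in the double group against 5.79 to 10.1 in Control, and Col25a1 at 14.2 to 18.1 against 5.80 to 7.93.

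None of the 9 basement membrane and anchoring genes passed in the double group against Control by limma. An unadjusted p under 0.05 was found for 5, 4 of them lower, and the share of all genes at that cut is not given here. Col18a1 (chr10:77052179-77166530) had 69.2, 105 and 111 FPKM in Control and 185, 125 and 122 in the double group (0.60 ± 0.21, adjusted p = 0.0934). It had 147, 119 and 128 FPKM with b-catenin-OE, also above all Control samples, and 142, 106 and 102 with Notch1-KO. Col4a5 had 22.4, 33.7 and 33.0 FPKM in Control and 18.9, 21.2 and 20.3 in the double group. It had 24.0, 22.7 and 22.5 FPKM with b-catenin-OE and 23.1, 32.5 and 32.3 with Notch1-KO. The double samples of Col4a5 did not overlap Control (-0.53 ± 0.17, adjusted p = 0.0614).

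Col4a1 (chr8:11198423-11312826) had 52.4, 37.5 and 40.4 FPKM in Control, 54.0, 55.7 and 57.3 with b-catenin-OE, 33.7, 44.3 and 44.0 with Notch1-KO and 42.9, 47.7 and 46.3 with both changes. Its partner Col4a2 (chr8:11312829-11449287) had 42.7, 28.7 and 29.9 FPKM in Control, 45.8, 37.3 and 38.3 with b-catenin-OE, 27.9, 31.0 and 31.2 with Notch1-KO and 34.1, 33.8 and 34.3 with both changes. Both were at their highest means in b-catenin-OE, and neither passed in any comparison. Col4a3 and Col4a4, whose rows share 1 locus (chr1:82448229-82722063), had 12.1 to 12.9 and 8.26 to 10.51 FPKM in Control and 5.44 to 7.66 and 4.52 to 5.19 in the double group, with no overlap and no call.

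No gene of type VI fell. Col6a3, the long chain of beaded filaments (chr1:90766860-90845248), had 2.12, 1.498 and 1.78 FPKM in Control, 3.71, 3.07 and 2.82 with b-catenin-OE, 2.18, 2.69 and 2.60 with Notch1-KO and 2.31, 2.84 and 2.66 with both changes. All 9 samples outside Control were above all 3 Control samples. Only b-catenin-OE against Control passed (0.69 ± 0.16, adjusted p = 0.0453), and that call ended in 9 of the 12 runs that left out 1 sample, with no filter and with a model of the compared groups alone. Col6a1 had 8.51 to 11.9 FPKM in Control and 11.997 to 14.4 in the double group, and Col6a2 7.68 to 9.85 and 8.02 to 8.75, and neither passed.

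In b-catenin-OE against Control, 1 of 37 collagen genes passed (Col6a3), against 2.24% of all tested genes (1.36% higher, 0.878% lower). At the looser cut of an unadjusted p under 0.05 there were 9, and the shares given do not apply to that cut. The median log2 difference was 0.01. It was 0.13 when Control sample 1 was left out, and turned negative when Control sample 2 (-0.09), Control sample 3 (-0.07) or b-catenin-OE sample 1 (-0.03) was left out. Groups did not overlap for 7 higher and 4 lower members, against 7.89% and 8.63% of all tested genes. Among those without a call were Col5a3 (1.04 to 3.14 FPKM in Control and 3.20 to 4.64 in b-catenin-OE) and Col5a1 (10.9 to 12.8 and 14.2 to 18.6), minor chains that set fibril diameter. With the sample number as a block, Col25a1 (0.70, adjusted p = 0.00985) and Col13a1 were added.

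In Notch1-KO against Control, none of the 37 passed by limma, against 0.857% of all tested genes (0.535% higher, 0.322% lower). At the looser cut of an unadjusted p under 0.05 there were 2 (Col13a1 lower, Col6a3 higher). The shares given do not apply to that cut. Groups did not overlap for 2 higher and 4 lower members, against 7.43% and 8.64% of all tested genes. With the sample number as a block, Col13a1 alone passed.

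In the double group against b-catenin-OE, Col14a1 fell and none rose, against 1.5% and 1.22% of all tested genes and 2.72% in either direction. Groups did not overlap for 12 lower and 2 higher members, against 16.2% and 12.6%. In the double group against Notch1-KO, Col25a1 rose and Col1a1 (-1.47 ± 0.38, adjusted p = 0.0304), Col8a1 and Col14a1 fell, against 4.91% and 5.21% of all tested genes and 10.1% in either direction. Col1a1 there lost its call without any 1 of the Notch1-KO samples, without double sample 2 or 3 and with no filter. When samples 2 and 3 were averaged, all 4 calls against Notch1-KO ended (adjusted p 0.191 to 0.388), as did those of Col14a1 against b-catenin-OE (adjusted p = 0.355) and of Col6a3 in b-catenin-OE against Control (adjusted p = 0.833). Groups did not overlap for 10 lower and 7 higher members, against 18.1% and 16.1%. With the sample number as a block, 9 members passed against Notch1-KO, among them Col15a1 (-0.85, adjusted p = 0.00163), Col6a6 (1.26, adjusted p = 0.0144) and Col4a5.

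Whether the difference of the double group from Control departed from the sum of the differences of b-catenin-OE and Notch1-KO was tested as an interaction, chosen with the results in view. None of the 37 collagen genes passed by limma, against 0.0206% of all tested genes. At the looser cut of an unadjusted p under 0.05 there were 4, and the share given does not apply to that cut. The smallest adjusted p was 0.279 for Col16a1 (-0.68 ± 0.20), followed by Col14a1 (-1.02 ± 0.34, adjusted p = 0.373) and Col6a3 (-0.63 ± 0.22, adjusted p = 0.413).

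The difference between groups varied with the sample number. In Notch1-KO against Control, 30 of 37 collagen genes were lower in sample 1 (median -0.55), while 29 of 37 were higher in the mean of samples 2 and 3 (median 0.14). For all tested genes both medians were near 0 (-0.01 and 0.00). The non-cartilage fibrillar genes showed the widest split, with medians of -1.11 and 0.21. In b-catenin-OE against Control the medians were -0.07 in sample 1 and 0.13 in samples 2 and 3, and in the double group against Notch1-KO they were 0.03 and -0.34. In the double group against Control the medians over all 37 genes were -0.28 and -0.21, but classes split here too: the fibrillar genes had -0.99 and -0.28, the network-forming and remaining genes -0.52 and 0.21 and the transmembrane genes -0.81 and 0.27. In this comparison 20 of 37 genes were lower and 8 higher in all 3 number-matched pairs, against 27.3% and 26.0% of all tested genes.

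The double samples did not overlap Control for any of the 6 genes that fell or the 1 that rose. Every pairing of these samples therefore gives the same direction. The sizes in the 3 pairs were -2.16, -1.54 and -2.19 for Col1a1 and 1.23, 1.16 and 1.14 for Col25a1. Within a group, sample 1 was above both others for 24 of 37 collagen genes in Control, 21 with b-catenin-OE, 3 with Notch1-KO and 14 with both changes. Over all tested genes these shares were 33.4% to 41.4%. Sample 1 was the lowest of its group in all 4 groups for Col9a1, Col26a1, Col15a1, Col25a1, Col13a1 and Col6a6, and the highest for Col2a1. The same held for 21.6% and 9.64% of all tested genes.

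**Figure D4:**
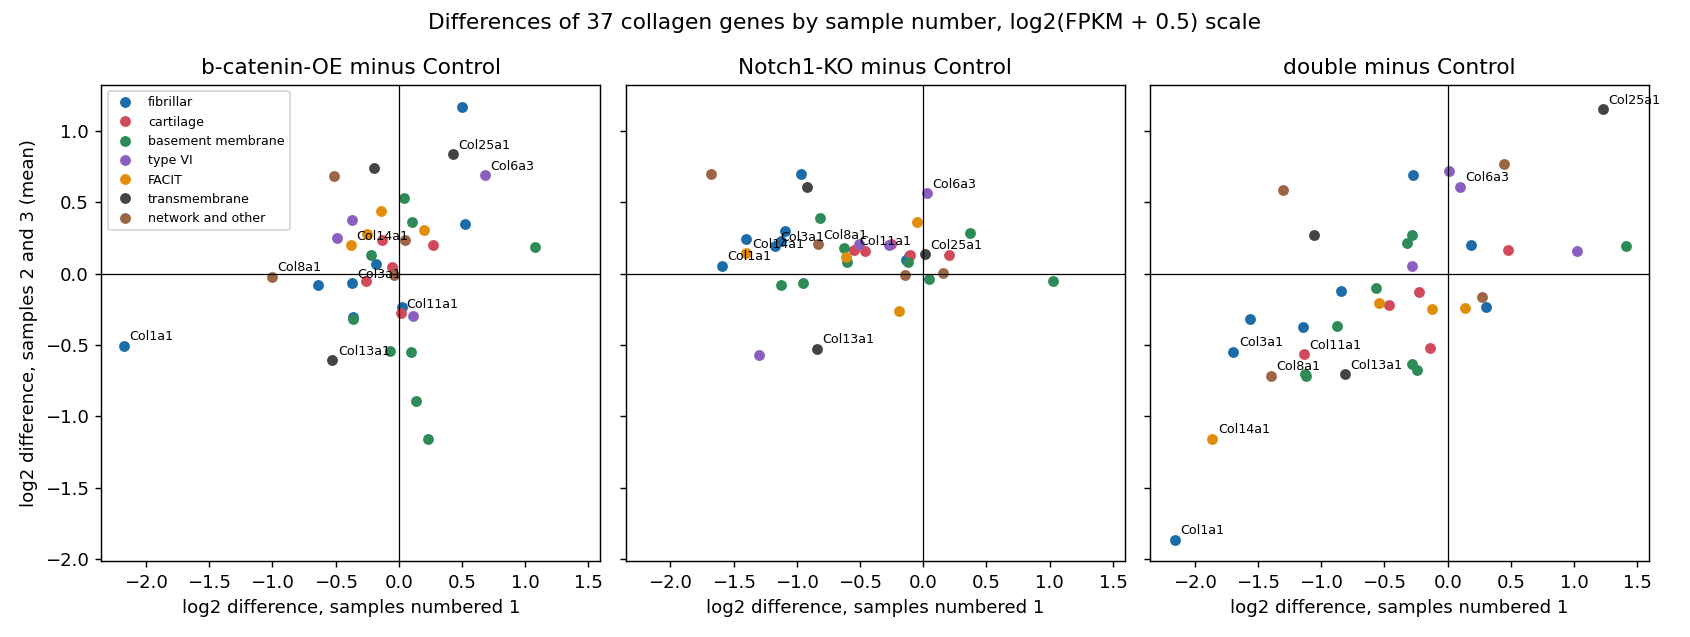
Log2 difference from Control of each of the 37 tested collagen genes in the samples numbered 1 (horizontal) and in the mean of samples 2 and 3 (vertical), for 3 groups, coloured by class, with the genes past the test named. In the Notch1-KO panel most points lie left of 0 and above 0, and in the double panel Col1a1 and Col14a1 lie far down and left in both.

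Markers of other cell types moved with the groups and samples as well. The bone list (11 genes, 9 tested, Sost under 0.5 FPKM in every sample) summed to 771, 151 and 146 FPKM in Control, 264, 164 and 154 with b-catenin-OE, 85.7, 204 and 207 with Notch1-KO and 156, 269 and 275 with both changes. In the double group against Control 3 of its 9 tested genes fell: Bglap, Bglap2 and Ibsp, all proteins of mineralised bone matrix. Of all tested genes, 6.64% fell in that comparison. Bglap had 68.2, 2.37 and 3.09 FPKM in Control and 0, 0.170 and 0.118 in the double group. Its double values are near the floor and under the filter of 0.5 FPKM, and the exact 0 can be a failed estimate. Bglap was thus tested only through its values outside the double group, and its call gives no separate support. Control sample 1 was highest both in this list and in Col1a1, Col1a2 and Col3a1. In samples 2 and 3, 7 of the 11 bone genes were lower in the double group than in Control (Runx2, Sp7, Bglap, Bglap2, Ibsp, Alpl and Mepe). In these samples 3 were higher (Spp1, Dmp1 and Sost, the last near the floor). The share of all genes separated in this way was not counted. Samples 2 and 3 lie close to each other, so such a separation alone says little. Without Spp1 the sum was 646, 119 and 116 FPKM in Control and 33.9, 104 and 104 in the double group. The part of bone in the collagen differences was not tested.

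The cartilage marker list (9 of its 12 symbols in the table, 7 tested) summed to 866 to 891 FPKM in Control, 457 to 505 with b-catenin-OE, 661 to 750 with Notch1-KO and 418 to 566 with both changes. Lect1, which encodes chondromodulin, was its most abundant gene and fell in the double group and in b-catenin-OE against Control. Of all tested genes, 6.64% fell in the double group against Control and 0.878% in b-catenin-OE against Control. The first of these shares also stands beside each list that follows. Acan, the main proteoglycan of cartilage, had only 0.695 to 7.11 FPKM, and Comp and Matn3 were under 0.5 FPKM in every sample, in libraries where Col2a1 and the type IX genes had 435 to 1894 FPKM. The endothelial list (10 genes) summed to 92.8 to 179 FPKM in Control and 73.3 to 96.6 in the double group, where Cdh5 and Kdr of 10 tested fell. The list of fibroblast genes (10 genes) summed to 1537 to 2017 FPKM in Control and 1541 to 2075 in the double group, where Tbx18 fell. The supporting cell and otic epithelium list (12 genes) summed to 5497 to 5924 FPKM in Control and 2698 to 2801 in the double group, where 7 genes fell (Lfng, Otogl, Hes5, Tectb, Sox2, S100a1 and Gjb6). The Schwann cell and glia list (8 genes) summed to 3200, 716 and 740 FPKM in Control, 1770 to 1857 with b-catenin-OE, 772 to 1111 with Notch1-KO and 574 to 720 with both changes, where S100b fell. Control sample 1 was thus the highest in this list as well. The osteoclast list (6 genes, 3 tested) summed to 46.3 to 78.5 FPKM in Control and 26.3 to 35.4 in the double group, where Acp5 fell. The macrophage list (5 genes in the table) stood at 156 FPKM in Control sample 1 and 151 in double sample 1, against 35.6 to 67.1 in the other 10 samples. The part of these cell types in the collagen differences was not tested.

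**Figure D5:**
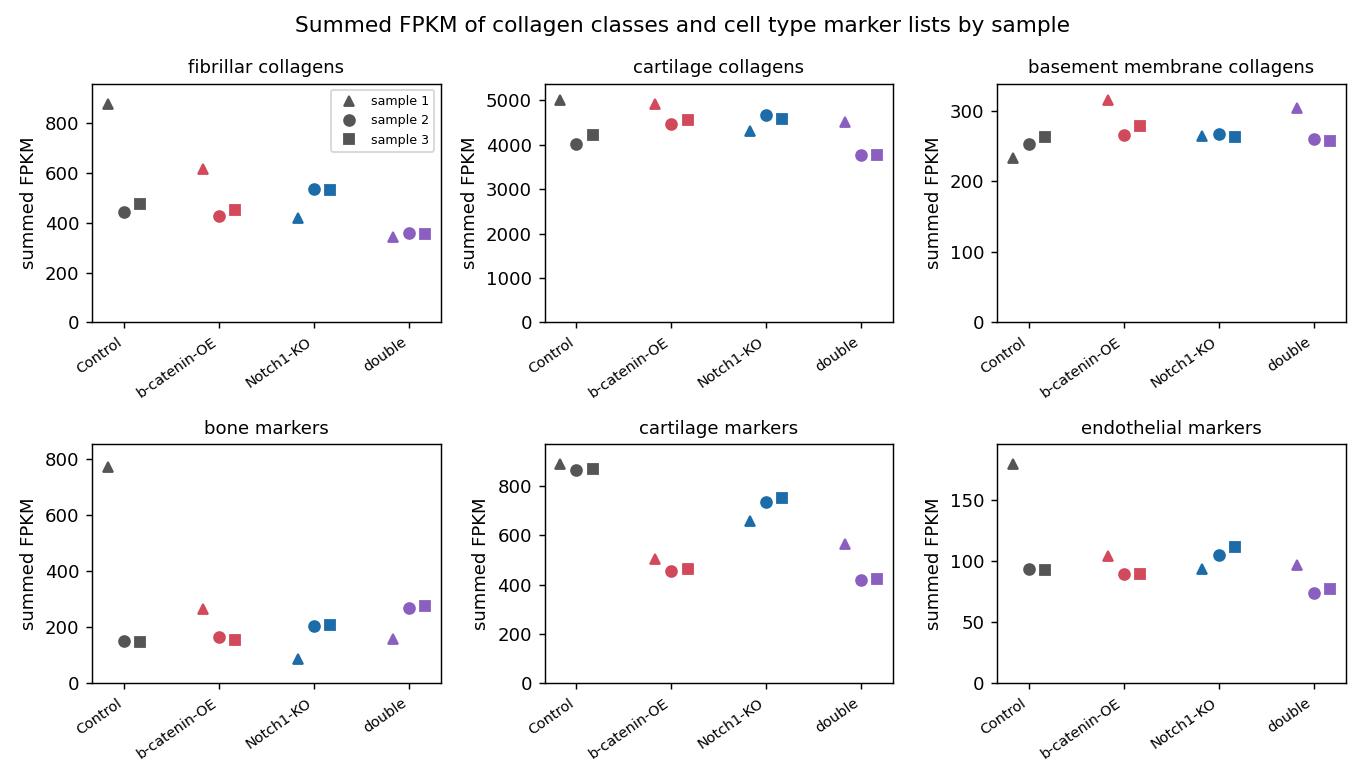
Summed FPKM of 3 collagen classes (top) and of 3 marker lists (bottom) in each of the 12 samples, by group, with the sample number as symbol. Fibrillar collagens are lowest in the double group (342 to 358), and the bone markers of Control sample 1 (771) stand far above all other samples.

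Enzymes that fold, cut and cross-link collagen also changed in the double group against Control, where 7 of 28 tested genes fell and 1 rose, beside 6.64% and 5.88% of all tested genes. Pcolce2, which enhances procollagen cleavage, fell from 59.9 to 32.8 FPKM (group means, -0.85 ± 0.13, adjusted p = 0.00117), and Adamts3, a procollagen N-proteinase, from 3.03 to 1.23 (-1.03 ± 0.17, adjusted p = 0.00189). Loxl4, a lysyl oxidase of collagen cross-links, rose from 0.0829 to 0.857 FPKM (1.20 ± 0.18, adjusted p = 0.00141). Its Control level is near the floor and under the filter of 0.5 FPKM. Loxl4 was thus tested only through its values in other groups, and its call gives no separate support. The other genes that fell were Tll1, Colgalt2, Loxl1, P4ha3 and Lox. The chaperone gene Serpinh1 had 332 to 460 FPKM and did not pass. In b-catenin-OE, Pcolce2 (-0.75 ± 0.13, adjusted p = 0.0102) fell and Loxl4 (1.17 ± 0.18, adjusted p = 0.00722) rose, the latter with the same limit.

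Of 17 tested basement membrane partners, 3 fell and 1 rose in the double group against Control, beside the same shares of all genes. Nid2, a nidogen that links laminin to type IV collagen, had 16.1, 9.26 and 10.9 FPKM in Control and 7.47, 4.92 and 4.97 in the double group (-0.99 ± 0.19, adjusted p = 0.00643). Frem1 (-0.78) also fell, and the laminin chain Lama1 rose from 0.156 to 0.843 FPKM (1.05 ± 0.18, adjusted p = 0.00319). The Control level of Lama1 is also near the floor and under the filter of 0.5 FPKM. Its call thus rests on values of other groups and gives no separate support. Of 14 partners on fibrils, among them the proteoglycans Dcn, Lum and Epyc, none passed by limma. An unadjusted p under 0.05 was found for 4, all lower, again without the share of all genes at that cut. Of 7 tested genes of collagen breakdown, Timp3, an inhibitor of matrix proteases, rose from 146 to 257 FPKM (0.81 ± 0.13, adjusted p = 0.002). The other genes of this list did not pass, but the median log2 difference of the 7 was -0.52. Groups did not overlap for 4 that were lower and 1 that was higher, against 17.5% and 15.9% of all tested genes. Of 6 receptors, Lair1, an inhibitory collagen receptor of immune cells, fell (-0.80 ± 0.22, adjusted p = 0.0348).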

How the data were processed

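RNA from 12 samples was measured by sequencing. The authors deposited 1 table of FPKM values for the series, made, per the submitters' processing notes, with Cuffdiff and Cufflinks 2.2.1, Bowtie2 2.2.1, TopHat2 2.0.10, Trimmomatic 0.23 and CASAVA 1.8 on build mm10 (roles not stated). Which annotation was used, and whether libraries were scaled further, the sources used here do not say. Loci are the table's, with 1 added to each start.

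Tests used limma 3.58.1 (R 4.3.3) on log2(FPKM + 0.5). The filter asked for 0.5 FPKM or more in 3 or more samples and kept 14581 rows, with all 12 samples in 1 model of the 4 group means and a trended spread. P-values are two-sided and adjusted by Benjamini-Hochberg over all tested rows within each of the 5 comparisons, with a threshold of 0.05. Counts at an unadjusted p under 0.05 in the main fit have no share of all genes at that cut beside them. FPKM values allow no count test. The 3 comparisons with Control share its samples. The procedure was tested on simulated data. Such a test cannot show whether the libraries of a group are independent of each other, so it does not lift that limit on the p-values.

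The members and lists were chosen with earlier results of these data known. Genes named in the text are the 4 given markers, the 3 most abundant members of each class, every member past the threshold, chain pairs, the targeted genes and up to 3 called members per partner list. Other genes, those given by their values without a call among them, were chosen after their values were seen. Marker lists serve as a check of the tissue.

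Depth was estimated from 2755 genes with 1 annotated transcript (GENCODE M21). In the samples numbered 2 and 3, 78.3% to 82.5% of low values were within 0.1 of a whole fragment, with depth and a length offset fitted to these same values. In the samples numbered 1 it was 28.7% to 42.2%.

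The deviations of same-numbered samples from their group means were correlated, and those of unlike numbers were not compared. The correlation was 0.187 to 0.47 in 4 comparisons, which were also fitted with the number as a block. It was as low as 0.0635 in the double group against b-catenin-OE. Samples 2 and 3 lie close together, so their deviations largely mirror that of sample 1. The check therefore cannot show that sample 2 pairs with sample 2 or sample 3 with sample 3. Other alternatives were a batch term for sample 1, samples 2 and 3 alone or averaged, other pseudocounts, filters and scalings, an untrended spread, the compared groups alone, and leaving out each sample.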

Additional observations from a re-analysis of the deposited data

How the results depend on the processing

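Pseudocounts of 0.1 and 1, a filter of 1 FPKM, median ratio scaling, quantile normalization and an untrended spread left each count of called collagen genes, and of all genes, within 1.5 times. No scaling moved the median of all genes by over 0.1. In the order b-catenin-OE, Notch1-KO and double against Control, then double against b-catenin-OE and against Notch1-KO, the collagen genes called were 1, 0, 7, 1 and 4, and all genes called were 327, 125, 1826, 396 and 1476. With the replicate block these were 3, 1, 9, 2 and 9 collagen genes and 635, 237, 2934, 826 and 2290 of all. The number was not shown to pair samples in any comparison, least of all in double against b-catenin-OE, where the block added Col25a1 (0.48, adjusted p = 0.0422). A batch term for sample number 1 gave 4, 1, 13, 3 and 12 collagen genes and 943, 370, 3569, 1371 and 2814 of all. With samples 2 and 3 alone there were 24, 15, 29, 23 and 26 collagen genes and 5685, 1735, 6134, 4281 and 6189 of all, a spread that may be technical. With samples 2 and 3 averaged there were no collagen calls by limma (2, 1, 10, 4 and 7 at an unadjusted p under 0.05) and 10, 0, 259, 0 and 175 of all (735, 602, 2073, 1202 and 1604). A model of the compared groups alone gave 0, 0, 9, 1 and 7 collagen genes (8 and 1 at an unadjusted p under 0.05 where there were 0) and, where the count of all genes moved, 65, 8 and 228 for b-catenin-OE and Notch1-KO against Control and for double against b-catenin-OE. With no filter the collagen gene of b-catenin-OE was lost (0, with 10 at an unadjusted p under 0.05).

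Leaving out each sample in turn gave 0 to 5, 0 to 0, 4 to 12, 0 to 4 and 1 to 10 collagen genes and 126 to 901, 14 to 213, 1128 to 2498, 113 to 1023 and 790 to 2060 of all. The highest count for b-catenin-OE was without Control sample 1. Reversals of direction were listed only for named genes that passed in the main fit or in the alternative. All came from samples 2 and 3 alone. In Notch1-KO against Control they were Col11a1 (0.16), Col1a2 (0.23), Col3a1 (0.19) and Col4a1 (0.18). In double against Control it was Col23a1 (0.27), and in double against b-catenin-OE Col4a3 (0.44). Other collagen genes that changed sign without passing are not listed. The cause of the reversals was not tested. Depth is unknown for the samples numbered 1, so counting error of low genes there cannot be given.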

Other observations

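Col20a1, a further FACIT gene, stood only in a row merged with Arfgap1, at 20.6 to 23.8 FPKM, and was not a member. Further rows of Col9a1 held at most 1.20 FPKM, and a further row of Col16a1 at most 1.23.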
